A study of Mus musculus with 32 samples.

Results

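Radial glia are the neural stem cells of the embryonic cortex. The cells described here are the non-cycling radial glia of the mouse dorsal telencephalon at E17.5 (E, embryonic day), picked from single-cell RNA-seq by a rule on raw UMIs, the unique molecular identifiers that count captured transcripts. A barcode was a member if it came from an E17.5 library, had at least 1000 UMIs and 500 detected genes, held at least 2 UMIs of Sox2 and Pax6 together, and held 0 UMIs of Top2a and Mki67 (cycling cells), Eomes (intermediate progenitors), Neurod6 (excitatory neurons), Gad2 (inhibitory neurons) and Olig1 (oligodendrocyte lineage). Non-cycling means here only that no UMI of Top2a or Mki67 was seen, and members still held UMIs of other cell cycle genes. The rule kept 715 members of 28455 E17.5 barcodes that passed both minimums, a share of 2.51%, and 143705 barcodes passed in the whole series. The same rule applied at the other stages kept 5885 barcodes at E12.5, 1912 at E14.5 and 1969 at E16.0.

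The study collected dorsal telencephalon, with medial tissue removed, from wild-type (WT) mouse embryos and from litter- and sex-matched littermates heterozygous for Chd8 (Chd8+/-, het), all on C57BL/6J. Chd8 encodes a chromatin remodeller of the chromodomain helicase family. The 32 libraries, each from 1 embryo, were made with the 10x 3′ version 2 chemistry and cover 4 stages, the early E12.5 and E14.5 and the late E16.0 and E17.5, with 4 WT and 4 het libraries at each stage. At E17.5 these were WT and het libraries named M1, M2, F1 and F2 (M, male; F, female). The labels call the embryos, and not a tissue, Chd8+/-, so neurons and other cells around the radial glia carry the genotype too.

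Radial glia line the ventricle and send a long fibre to the pial surface. In early and mid corticogenesis they produce neurons, directly or through intermediate progenitors that express Eomes. Late in gestation they lower neurogenic factors and turn on the glial programme, in which nuclear factor I proteins, Sox9, Notch, BMP and the gp130 to STAT3 pathway are known regulators, and they then give rise to astrocytes and, in part, to oligodendrocyte precursors.

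The 8 E17.5 libraries had 14710694 to 25297174 UMIs in all. They held 47 to 140 members each, with 256560 to 764638 UMIs summed over members and a median of 3922 to 5617 UMIs per member. Members at E14.5 were deeper, with library medians of 5798.5 to 8638 UMIs, and those at E16.0 had medians of 5690 to 6781. Mitochondrial UMIs reached at most 5.19% in any E17.5 member, and 11 members were marked by a simulated-doublet score. Of the E17.5 barcodes, 495 sequences occurred in more than 1 E17.5 library. They include 29 member barcodes, of which 1 was a member in both libraries, so the 715 members carry 714 distinct sequences. The labels give the E17.5 libraries M1 and F1 of both genotypes a sample code that starts with p and the libraries M2 and F2 a code that starts with c. What the codes stand for is not stated, and codes also differ between stages, so stage and code cannot be told apart. For the stage changes of several genes that differed between the codes, values for M1 and F1 and for M2 and F2 are given beside the pooled ones.

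Markers of radial glia were present in the members of every library. Slc1a3, the glial glutamate transporter GLAST, stood at 675, 821 and 970.4 CPM (counts scaled to a common total per library; lowest, median and highest of the 8 libraries), against 99.3 to 134 CPM in the 27740 other E17.5 cells. Aldoc, a glycolytic enzyme of radial glia and astrocytes, stood at 977, 1179 and 1407 CPM against 60.0 to 99.9 CPM. Tnc, the matrix protein tenascin C, had 298, 401 and 616 CPM against 24.2 to 47.9 CPM. Hopx, a marker of outer radial glia in primates, was much scarcer at 15.7, 42.1 and 80.4 CPM, and the other cells held 1.91 to 6.62 CPM. All 18 genes of the radial glia list were higher in the members in 8 of 8 libraries, including Sox2 and Pax6, which the rule used. Because the rule chose the members in this same comparison, these values are a description and carry no test.

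The share of members with at least 1 UMI followed the same order. Slc1a3 was seen in 76.9% of the 715 members and in 18.9% of 20344 cells with at least 2 Neurod6 UMIs, called Neurod6 neurons here (median depth 4866 UMIs, against 4536 in the members). For Tnc these shares were 57.8% and 2.02%, for Aldoc 75.0% and 3.98%, and for Hopx 15.2% and 0.560%. The Neurod6 neurons also held Eomes (141 CPM) and Top2a (76.4 CPM), so the set was not free of progenitor transcripts. Where its UMIs of glial genes came from was not tested. With every cell thinned to 2000 UMIs, which left 694 members and 19920 neurons, Slc1a3 was seen in 62.8% of members against 9.43% of neurons.

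Not every member carried the glial profile. Of the 715 members, 116 (16.2%) had at least 2 UMIs of Dlx genes, transcription factors of the inhibitory lineage, and another 19 (2.66%) had at least 5 UMIs of the neuronal genes Tubb3 and Stmn2. The remaining 580 (81.1%) had neither and made up 73.8% to 89.3% of members per library. Slc1a3 reached 74.8 CPM in the Dlx set, 343 CPM in the neuronal set and 927 CPM in the remaining 580 members. Aldoc followed the same order, at 121, 454 and 1363 CPM, as did Tnc, at 23.2, 92.6 and 460.3 CPM. By these 3 markers, which the split did not use, the label late radial glia describes the 580 members better than the Dlx set. This split was made after the data were seen, and results that it changes are given both ways.

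Values just inside and just outside the limit on Sox2 and Pax6 differed. The 304 barcodes with 1 UMI held 169 CPM of Slc1a3 and 1734 CPM of Tubb3, a neuronal tubulin. The 174 members with exactly 2 UMIs held 698 CPM of Slc1a3 and 885 CPM of Tubb3, and the 541 members with 3 or more held 844 and 288 CPM. Members just inside the limit had more Tubb3 than the rest.

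**Figure D1:**
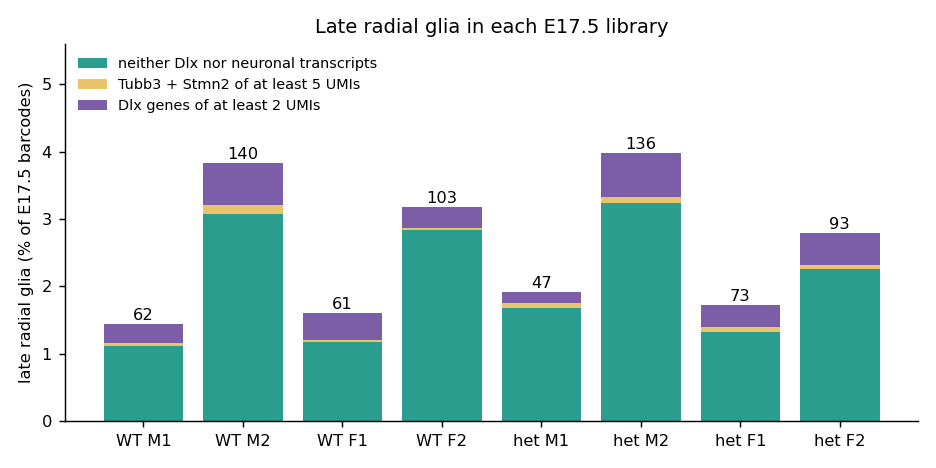
Members as a percentage of all E17.5 barcodes that passed the minimums, for each of the 8 libraries, split into the 580 members without Dlx or neuronal transcripts, the 116 with at least 2 Dlx UMIs and the 19 with at least 5 neuronal UMIs. Bars start at 0, the number above a bar is its count of members, and the M2 and F2 libraries (2.79% to 3.97%) lie above the M1 and F1 libraries (1.44% to 1.92%) in both genotypes.

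Markers of microglia, fibroblasts and endothelium were low in the members. The summed level of 5 microglial genes was 0 to 13.4 CPM, that of 5 fibroblast genes 0 to 9.02 CPM and that of 5 endothelial genes 0 to 33.5 CPM. Erythroid genes summed to 276 to 737 CPM in members and 2392 to 18441 CPM in the other cells of the same libraries. Genes of Cajal-Retzius cells and of inhibitory neurons were not low in every library. The 5 Cajal-Retzius genes summed to 4.48 to 518 CPM in members and 52.2 to 127 CPM in the other cells. The 10 interneuron genes summed to 179 to 459.6 CPM in members. They include Gad2, which the rule set to 0 in members, so their sum is not compared with the other cells. Reelin (Reln), the main product of Cajal-Retzius cells, was at 16.1, 28.8, 117 and 0 CPM in WT M1, M2, F1 and F2 and at 335, 1.52, 69.7 and 16.8 CPM in het, against 25.3 to 67.7 CPM in the other cells, and it was higher in members in 3 libraries and lower in 5. The high libraries rest on single cells: in het M1, 61 of the 86 UMIs came from 1 member. In that split, the 19 neuronal members held 151 of the 186 Reln UMIs of all members. They also held 39 of 44 UMIs of Nhlh2, 29 of 41 of Ndnf, 12 of 16 of Lhx5 and 3 of 6 of Trp73, the other Cajal-Retzius genes. The part of these other cell types in the results below was not tested beyond the split into Dlx, neuronal and remaining members.

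By the largest median ratio to the other E17.5 cells of the same library, the members' leading genes were Aldoc, Tnc, Mt2, Pdpn, Mt3, Ccdc80, Ecrg4, Notch2, Camk2d, Veph1, Mt1, Mlc1, Gm11627, Fabp7 and Igfbp5. Their median log2 ratios ran from 3.24 to 3.76. Fabp7, the brain fatty acid binding protein of radial glia, was the most abundant of them at 13396, 16198 and 18663 CPM against 1232 to 2047 CPM. The metallothionein Mt3, a metal-binding protein of astrocytes, stood at 2871, 3733 and 5309.7 CPM against 179.9 to 535 CPM. Pdpn, a membrane glycoprotein, had 117, 260.3 and 361 CPM and the receptor Notch2 58.5, 136 and 233 CPM. Genes that the rule used were left out of this ranking at both ends. Among the others, the lowest ratios belonged to the neuronal transcription factors Neurod2 (-5.35), Neurod1 and Bhlhe22, the haemoglobin genes Hba-a1, Hba-a2 and Hbb-bt, the endothelial claudin Cldn5, and Nrp1, Rbfox1 and 9130024F11Rik.

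**Figure D2:**
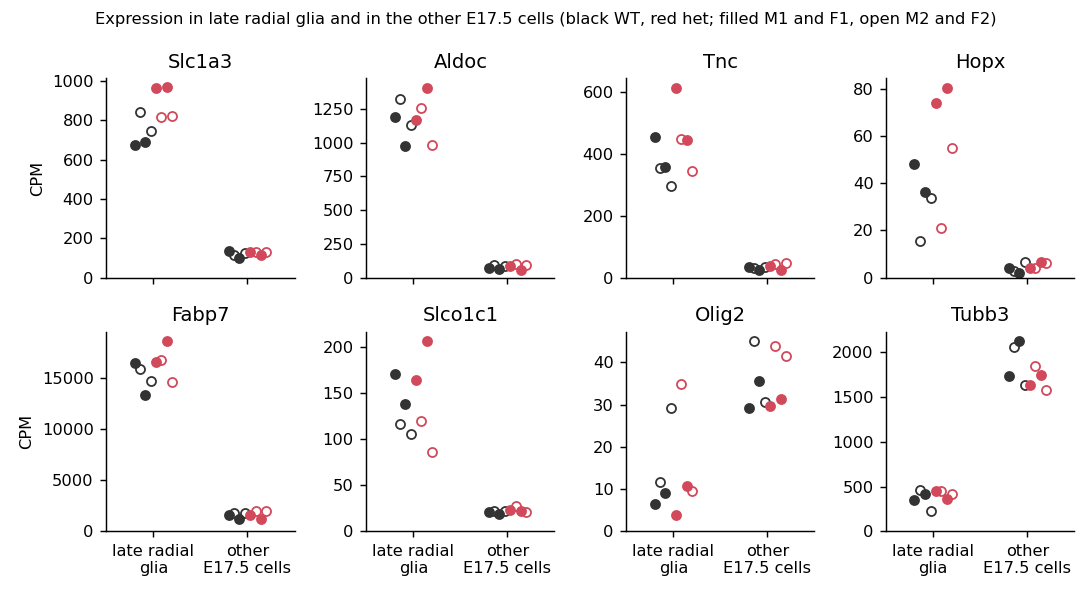
CPM of 8 genes in the members and in the other E17.5 cells of each of the 8 libraries on a linear axis, WT in black and het in red, filled points for M1 and F1 and open points for M2 and F2. Slc1a3, Aldoc, Tnc, Hopx, Fabp7 and Slco1c1 lie higher in the members in each library. The neuronal tubulin Tubb3 and the oligodendrocyte factor Olig2 are plotted for their levels only, since the rule barred Neurod6 and Olig1 from the members.

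The stage comparison asked which genes differed between radial glia picked by one rule at E17.5 and at the earlier stages. It was not used to choose the members. Of 10786 genes tested with edgeR's quasi-likelihood test on summed counts of the 32 libraries, 4040 (37.5%) passed against E16.0 at a Benjamini-Hochberg adjusted p under 0.05, 2179 (20.2%) of them higher and 1861 (17.3%) lower at E17.5. Against E14.5, 5378 (49.9%) passed, 2833 (26.3%) higher and 2545 (23.6%) lower. The counts for gene lists below are to be read against these shares. Both genotypes entered with equal weight.

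Most tested astrocyte genes rose in the members. Of the 20 genes of the astrocyte list, 15 were abundant enough to test. Of these 15, 12 rose and 0 fell against E16.0, with a median log2 fold change of 1.81, and 13 rose and 2 fell against E14.5, with a median of 3.65; the median over all genes tested was 0.05 in both comparisons. A gene that passed the filter on low counts only through its E17.5 level had to differ. Among the genes named here and below these were Slc1a2, Slc4a4, Aqp4, Gfap, Pla2g7, Olig2, Egfr, Erbb4 and Cldn5, and Crabp2, Dmrt3, Neurog1, Hmga2, Car14 and Cdc6 passed it only through the earlier stages. The differences of all these genes, and the counts of the lists that hold them, are descriptions. Without Slc1a2, Slc4a4, Aqp4 and Gfap, 8 of 11 astrocyte genes rose against E16.0, and 9 rose and 2 fell against E14.5. Of the untested astrocyte genes, S100b, Gjb6, Agt, Cd44 and Itih3 were at most 5.83 CPM in the median library, and Gjb6 and Agt were at 0.

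Slco1c1, a transporter of thyroid hormone and organic anions, had the largest change against E14.5 of the genes that passed both comparisons with a mean of at least 30 CPM. The gene lies on chr6:141524368-141570177 (plus strand, mm10). It lay at 86.2, 129 and 206 CPM at E17.5, 25, 27.7 and 61.6 CPM at E16.0 and 0, 1.98 and 4.03 CPM at E14.5 (lowest, median and highest of 8 libraries each), and at 0 in all 8 libraries at E12.5. The E17.5 libraries did not overlap the earlier ones. The log2 fold change was 2.03 ± 0.21 (SE) against E16.0 and 6.21 ± 0.32 against E14.5 (edgeR adjusted p = 4.01e-08 and 4.21e-14). Against E16.0 it was 2.30 with M1 and F1 alone and 1.71 with M2 and F2 alone.

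Tnc stood at 298, 401 and 616 CPM at E17.5, after 73.8, 93 and 139 CPM at E16.0 and 3.52, 4.88 and 16.1 CPM at E14.5, again with no overlap between stages. Its log2 fold changes were 2.10 ± 0.16 and 5.97 ± 0.22 (edgeR adjusted p = 8.08e-11 and 1.53e-18). Tnc belongs to the radial glia, basal radial glia and matrix lists. The gene lies on chr4:63959785-64047015 (minus strand, mm10), where the annotation also has 8030451A03Rik on the plus strand; how strand was used in counting is not given in the sources used here.

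Apoe, the lipid carrier secreted by astrocytes, had 256, 339 and 733 CPM at E17.5, 77.3, 118 and 129.6 CPM at E16.0 and 13.4, 28.6 and 33.4 CPM at E14.5. The E17.5 libraries all lay above those of both earlier stages, and the log2 fold changes were 2.03 ± 0.18 and 3.89 ± 0.20. Aldh1l1, the folate enzyme used as an astrocyte marker, had 62.7, 119.9 and 192 CPM at E17.5, 54, 66.2 and 85.7 CPM at E16.0 and 1.39, 13.9 and 19.7 CPM at E14.5. Its change against E16.0 was smaller, at 0.94 ± 0.22, than that against E14.5, at 3.41 ± 0.27, and the E16.0 and E17.5 libraries overlapped. Sparcl1, a secreted synaptogenic protein of astrocytes, had 90.2, 113 and 187 CPM at E17.5 and a median of 32.5 at E16.0 and 4.89 at E14.5.

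Slc1a2, Slc6a11 and Slc4a4, transporters on the astrocyte list, had medians of 2.52, 2.44 and 1.88 CPM at E14.5. Slc1a2, the glutamate transporter GLT-1, had log2 fold changes of 3.50 against E16.0 and 4.34 against E14.5 and stood at 29.1, 51.5 and 134 CPM at E17.5. The GABA transporter Slc6a11 had 1.94 and 4.19 and the bicarbonate transporter Slc4a4 2.32 and 3.79. The membrane protein Mlc1 had medians of 146 CPM at E17.5, 109.8 CPM at E16.0 and 53.1 CPM at E14.5, and it rose by 0.40 and 1.32. Aqp4, the water channel of astrocyte endfeet, reached only 2.39, 12.8 and 26.8 CPM, and Gfap, the intermediate filament of astrocytes, 3.01, 11 and 26.8 CPM. Each was seen in 37 of the 715 members (5.17%), against 0.251% of the Neurod6 neurons for Aqp4 and 0.295% for Gfap. S100b was seen in 10 members and was not tested.

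The connexin Gja1 (-0.56) and the receptor Fgfr3 (-0.59) fell against E14.5, and neither passed the test against E16.0. Without the members that had Dlx or neuronal transcripts, 13 of 16 astrocyte genes tested rose against E16.0 and 14 rose and 1 fell against E14.5, where 17.8% of all genes were higher and 16.7% lower against E16.0, and 25.1% higher and 23.5% lower against E14.5.

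**Figure D3:**
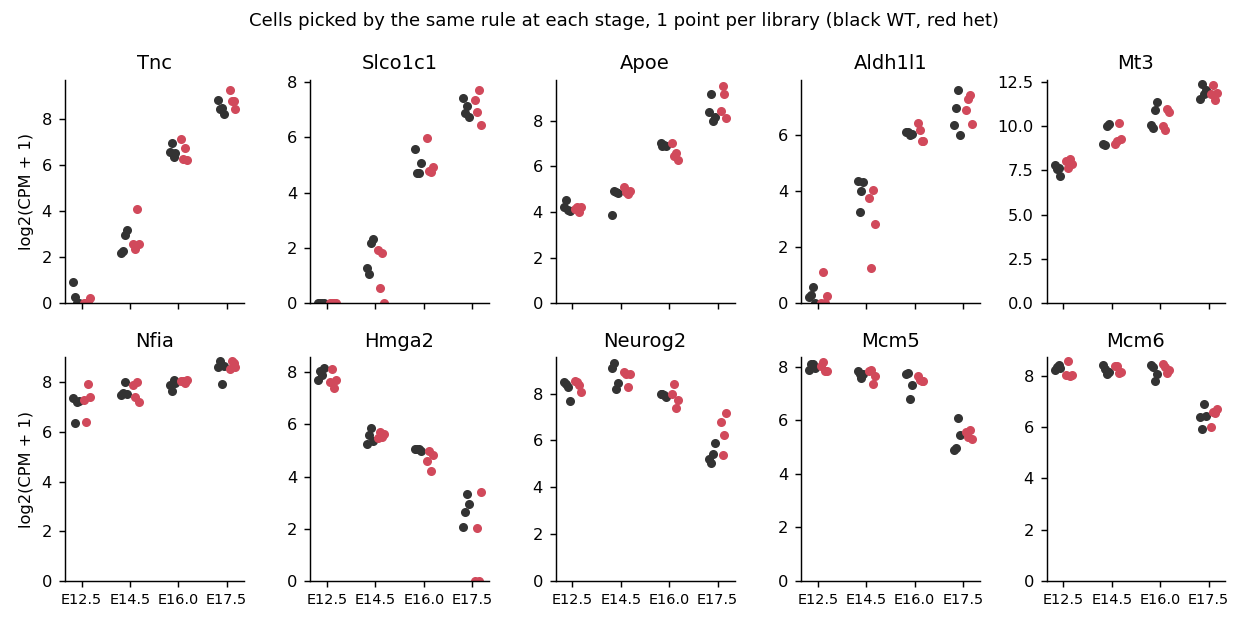
Level of 10 genes, as log2(CPM + 1), in the radial glia of each of the 32 libraries by stage, WT in black and het in red. Tnc, Slco1c1, Apoe, Aldh1l1, Mt3 and Nfia are highest at E17.5 in the medians, and Hmga2, Neurog2, Mcm5 and Mcm6 are lowest there.

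Other genes with the largest rises, by the rule for named genes, were Luzp2, Dtna, S100a16, Scrg1 and Atp1b1. Luzp2, a leucine zipper protein, had a log2 fold change of 4.66 against E14.5 and 1.89 against E16.0. Dtna, a dystrobrevin of the astrocyte endfoot complex, had 4.32 and 1.87. The calcium-binding protein S100a16 had 4.14 and 2.19, the latter 1.23 with M1 and F1 alone and 2.58 with M2 and F2 alone. Scrg1 had 4.05 and 1.27, and the sodium pump subunit Atp1b1 had 3.88 and 2.27. Of the 20 genes named by the rule on the largest changes, Slco1c1, S100a16, Scrg1, Apoe, Neurog2, Mcm3 and Mcm5 overlap no other annotated gene, and the rest do. In all, 1840 genes were higher against both earlier stages and 1694 were lower, of which 613 and 1359 had a mean of at least 30 CPM over the libraries.

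Among general radial glia genes, the change was uneven. Without Sox2 and Pax6, which the rule used, 8 of 16 rose and 3 fell against E16.0, and 10 rose and 3 fell against E14.5. Ptprz1, a receptor phosphatase that binds tenascin and pleiotrophin, rose to 532, 1123 and 1832 CPM from a median of 338 CPM at E16.0 and 102 at E14.5. Fabp7 rose by a log2 of 0.65 and 1.82, Slc1a3 by 0.59 and 1.46, and Hopx by 0.70 and 2.17. Aldoc differed little from E16.0 (-0.05, adjusted p = 0.753 by edgeR) and rose against E14.5 (0.51). The intermediate filament genes Vim (-0.63 against E16.0) and Nes (-0.40) and the Notch target Hes1 (-0.60) fell. Without the Dlx and neuronal members, Nes (-0.27) and Hes1 (-0.45) no longer passed against E16.0 (adjusted p = 0.139 and 0.123, edgeR), and Vim no longer passed against E14.5 (-0.19, adjusted p = 0.301). Against E16.0, Vim was -0.31 with M1 and F1 alone and -1.11 with M2 and F2 alone, Nes -0.05 and -0.82, and Hes1 -0.33 and -0.97; these 3 genes did not pass in either stage comparison with M1 and F1 alone. Hopx was 1.15 with M1 and F1 and did not pass with M2 and F2 (0.19).

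Of 8 genes that mark basal radial glia in other species, 5 could be tested, and 4 rose against E16.0 and 5 against E14.5. They were Hopx, Tnc, Ptprz1, Pea15a, a death-effector domain protein of astrocytes, and Il6st. Against E16.0, Pea15a was -0.06 with M1 and F1 alone and 0.75 with M2 and F2 alone, and it passed with M2 and F2. Fam107a, Moxd1 and Lifr were too low to test, with library medians of at most 4.63 CPM.

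Of 22 transcription factors and receptors that regulate gliogenesis, 21 were tested, and 10 rose and 2 fell against E16.0 (median log2 fold change 0.45), and 14 rose and 2 fell against E14.5 (median 0.49). The nuclear factor I gene Nfia rose to 241, 394 and 468 CPM from 202, 257 and 272 at E16.0, with 0.70 ± 0.18 and 0.90 ± 0.19 against E16.0 and E14.5. Nfib changed by 0.38 and Nfix by 0.26 against E14.5, and neither passed against E16.0 (0.20 and 0.14). Sox9 rose by 0.26 against E16.0 and did not pass against E14.5 (0.20, adjusted p = 0.0820 by edgeR). The zinc finger gene Zbtb20 rose by 0.90 and 1.97, and the nuclear receptor Rorb by 1.12 and 2.40.

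Ligands, receptors and targets of the gliogenic pathways gave a mixed picture. Among BMP and STAT genes, 6 of 15 tested rose and 2 fell against E16.0, and 10 rose and 2 fell against E14.5. The ligand Bmp7 rose by 2.47 and the receptors Bmpr1a, Bmpr1b and Bmpr2 by 0.87, 0.88 and 1.01 against E14.5. The BMP targets Id1 (2.01) and Id3 (2.42) rose, while Id4 fell from a median of 1484 CPM at E14.5 and 891 at E16.0 to 653 (-1.36 and -0.43). The gp130 receptor Il6st rose against E14.5 (0.79), its partner Cntfr fell (-1.06), and Stat3, at 4.48, 10.7 and 19.3 CPM at E17.5, did not pass (log2 fold change 0.49 against E14.5). Jak2 rose by 1.33.

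Of 11 FGF and EGF genes tested, 5 rose and 0 fell against E16.0 and 7 rose and 1 fell against E14.5. Egfr, the EGF receptor of late progenitors, stood at 0, 11.3 and 16.1 CPM at E17.5 and at a median of 1.53 CPM at E16.0 and 0 at E14.5. The FGF targets Spry2 (2.69), Etv4 (2.90) and Etv5 (0.76) rose against E14.5. Etv5 was 0.18 with M1 and F1 alone and 1.01 with M2 and F2 alone, and it did not pass with M1 and F1. Erbb4 had a log2 fold change of 3.15 with all members and was too low to test without the Dlx and neuronal ones.

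In the Notch pathway, 3 of 12 genes tested rose and 2 fell against E16.0, and 5 rose and 4 fell against E14.5. The receptor Notch2 rose by 1.13 and 1.19 and the ligand Jag1 by 1.20 and 2.38. The ligand Dll1, which newborn neurons and intermediate progenitors present to radial glia, fell against E14.5 (-1.32), and the targets Hes1 (-0.86) and Hey1 (-0.91) fell. Hes5, the other main target, rose by 0.25 against E16.0 and did not pass against E14.5 (-0.17). Against E16.0, Notch2 was 0.47 with M1 and F1 alone and 1.43 with M2 and F2 alone, and Hes5 -0.04 and 0.41, and neither passed with M1 and F1.

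Most tested genes of the extracellular matrix and its receptors rose. Of 13 tested of 15, 11 rose and 0 fell against E16.0 (median log2 fold change 1.24) and 12 rose and 0 fell against E14.5 (median 1.45). Besides Tnc, Ptprz1 and Sparcl1, the chondroitin sulphate proteoglycans Ncan (1.45), Bcan (1.44), Vcan (1.08) and Cspg5 (2.25) rose against E14.5, as did the integrins Itgb5 (3.58), Itgb8 (1.19) and Itga6 (0.69). Against E14.5, Ncan was 0.98 with M1 and F1 alone and 1.71 with M2 and F2 alone. Itgb1 did not pass in either comparison (0.03 and 0.30).

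Of 16 genes of glial metabolism, 10 rose and 1, the lactate dehydrogenase Ldhb (-0.36), fell against E16.0, and 13 rose and 0 fell against E14.5. The metallothioneins Mt1, Mt2 and Mt3 bind zinc and copper. Mt1 had 568, 1016 and 1259 CPM at E17.5 and a median of 297 CPM at E16.0 and 349.6 at E14.5, with log2 fold changes of 1.71 ± 0.16 and 1.28 ± 0.16. Mt2 followed the same pattern (1.97 ± 0.20 and 1.64 ± 0.19), with its E16.0 median (204 CPM) below that at E14.5 (235 CPM). Mt3 rose in steps, from a median of 599 to 1434 and 3733 CPM; against E16.0 it was 1.07 with M1 and F1 alone and 1.63 with M2 and F2 alone. Glutamine synthetase Glul rose by 0.65 and 1.09, and Pla2g7, a phospholipase of astrocytes whose test rests on its E17.5 level, stood at 0, 19.7 and 62.2 CPM at E17.5 and at medians of 1.90 CPM at E16.0 and 0.203 CPM at E14.5.

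The 9 oligodendrocyte precursor genes summed to 6.43 to 42.5 CPM in the members, and 5 were at 0 in all 8 libraries. These 5 include Olig1, which the rule set to 0. Barring Olig1 can also have removed barcodes that held the other genes of the list. The low sum is therefore a description, and no comparison with the other E17.5 cells is drawn. Only Olig2, a factor of oligodendrocyte precursors that some gliogenic progenitors also express, was abundant enough to test. It had 3.90, 10.1 and 34.9 CPM at E17.5 and medians of 3.98 CPM at E16.0 and 1.31 CPM at E14.5, and it was tested only through its E17.5 level, so no rise is read from it. That level rested on 59 UMIs in 31 of the 715 members (4.34%, against 0.855% of the Neurod6 neurons), with 23 of the UMIs in het M2. Foxj1, the regulator of motile cilia in ependymal cells, rose by 1.20 and 0.88 to 3.21, 14.4 and 31.2 CPM, while Ccdc153, Tmem212, Ttr and Folr1 of the same list were at 0 in every library. Pifo and Mcidas, the remaining genes of that list, had 13 and 1 UMIs in all members.

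**Figure D4:**
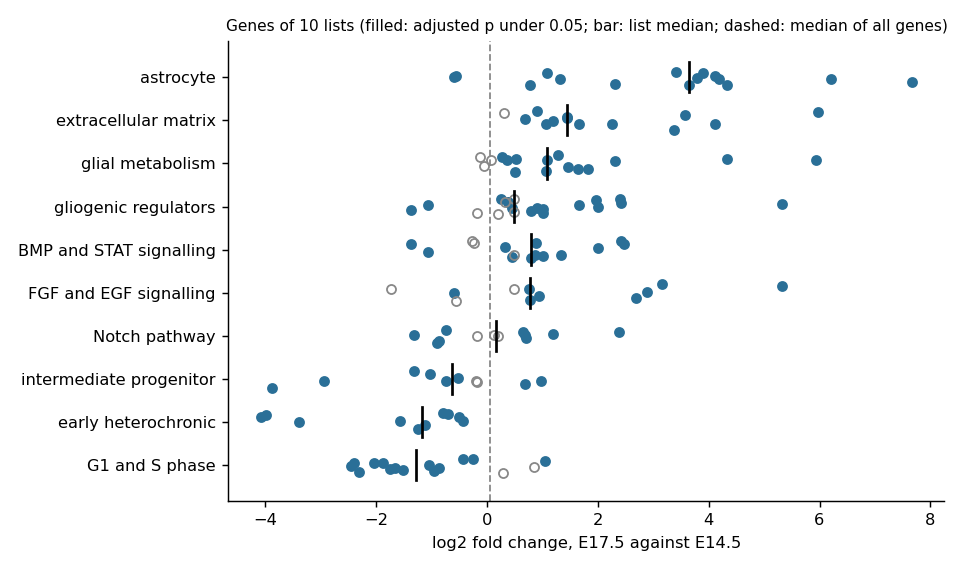
Log2 fold change of radial glia at E17.5 against E14.5 for each tested gene of 10 lists, with filled points for genes at an edgeR adjusted p under 0.05 and a bar at each list's median. Astrocyte genes have a median of 3.65, matrix genes 1.45, early heterochronic genes -1.18 and G1 and S phase genes -1.27, while the median over all genes tested is 0.05.

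Most tested genes that mark the early state of cortical progenitors fell. Of 12 such genes, 10 were tested, and 0 rose and 6 fell against E16.0 (median log2 fold change -0.57), and 0 rose and 10 fell against E14.5 (median -1.18). Without Hmga2, Crabp2 and Dmrt3, which passed the filter only through the earlier stages, 5 of 7 fell against E16.0 and 7 against E14.5. Hmga2, a chromatin protein that sustains early neural stem cells, had 0, 4.22 and 9.57 CPM at E17.5, 17.4, 30.4 and 32.4 CPM at E16.0 and 36.6, 46 and 57.4 CPM at E14.5, from a median of 223 CPM at E12.5. Its highest E17.5 library lay below the lowest at each earlier stage. The gene, on chr10:120361275-120476469 (minus strand, mm10), overlaps 3 other annotated genes. The log2 fold changes were -2.56 ± 0.29 and -3.39 ± 0.26. They are a description without a p-value, because Hmga2 passed the filter only through the earlier stages. The RNA-binding proteins Igf2bp1 (-1.24), Igf2bp2 (-1.56) and Igf2bp3 (-0.70) fell against E14.5. The retinoid carrier Crabp2 and the factor Dmrt3 had 6 and 5 UMIs in all E17.5 members. Lin28a and Lin28b, regulators of let-7 processing, were too low to test.

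Neurog2 fell in both comparisons. This gene, the proneural factor of the dorsal telencephalon, had 31.4, 50.1 and 141 CPM at E17.5, after 167, 246 and 339 CPM at E16.0 and 294, 455 and 641 CPM at E14.5, and every E17.5 library lay below every earlier one. The gene is at chr3:127633135-127635631 (plus strand, mm10). Its log2 fold changes were -1.97 ± 0.22 and -2.94 ± 0.21. Of the 10 intermediate progenitor genes tested, 2 rose and 1 fell against E16.0, and 2 rose and 6 fell against E14.5. Neurog1 (2 UMIs in all E17.5 members), Dll1 (-1.32), Gadd45g (-1.03), Mfng (-0.73) and Btg2 (-0.53) were the others called lower, and Insm1 (0.69) and Sstr2 (0.98) rose. With M1 and F1 alone neither passed (0.49 and -0.88).

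Most genes of the G1 and S phase list fell. The rule removed barcodes with Top2a or Mki67 at each stage, so all members compared lacked UMIs of these genes of the later cell cycle. Of 16 genes of G1 and S phase, 2 rose and 12 fell against E16.0 (median -1.46), and 1 rose and 13 fell against E14.5 (median -1.27). All 6 subunits of the MCM2-7 helicase, which unwinds DNA at replication origins, fell. Mcm5 had 28.9, 41.8 and 66.1 CPM at E17.5 against 111, 179 and 215 at E16.0 and 163, 213 and 236 at E14.5, with -2.05 ± 0.13 and -2.40 ± 0.13. Against E16.0, the log2 fold change of Mcm2 was -1.65, that of Mcm3 -1.89, that of Mcm4 -1.58, that of Mcm6 -1.73 and that of Mcm7 -2.03. Mcm2, Mcm4 and Mcm6 are not among the 10 largest changes, which included Mcm3, Mcm5, Mcm7, the polymerase subunit Pold1 (-2.04 against E14.5) and the thymidylate pathway enzyme Shmt1 (-2.45). Nrm (-2.45), 2610318N02Rik (-2.58) and the carbonic anhydrase Car14 (-3.10) complete that list. Cdkn1b, the cell cycle inhibitor p27, rose by 0.68 and 1.06 (against E16.0, 1.10 with M1 and F1 alone and 0.15 with M2 and F2 alone, which did not pass), and the cyclin Ccnd2 did not pass against E16.0 (-0.13).

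The promoters of 3 genes that rose together and 2 that fell together are shown for the letters that known factors of each group bind. For the metallothioneins these are the cores of the metal response element, TGCACNC and TGCGCNC, bound by the zinc sensor Mtf1. For the replication genes they are the E2F letters TTTGGCGC and TTTCGCGC. Each sequence runs 5′ to 3′ on the gene's strand from RefSeq's table for GRCm38.p6, the build also called mm10, and ends 11 bases before the annotated start. Capitals mark matches to the motif of that group on either strand.
Mt1 chr8:94178839-94179078, plus strand: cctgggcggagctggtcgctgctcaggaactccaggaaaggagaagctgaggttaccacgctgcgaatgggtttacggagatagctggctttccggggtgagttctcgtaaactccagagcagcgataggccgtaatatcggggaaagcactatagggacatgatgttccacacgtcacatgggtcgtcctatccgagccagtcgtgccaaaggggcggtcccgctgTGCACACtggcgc
Mt2 chr8:94172368-94172607, plus strand: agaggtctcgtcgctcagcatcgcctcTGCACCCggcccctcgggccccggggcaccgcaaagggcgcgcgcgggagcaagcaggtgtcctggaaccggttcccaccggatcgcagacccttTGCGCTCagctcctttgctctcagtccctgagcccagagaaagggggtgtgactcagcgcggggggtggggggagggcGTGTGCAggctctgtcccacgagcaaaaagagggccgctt
Mt3 chr8:94152357-94152596, plus strand: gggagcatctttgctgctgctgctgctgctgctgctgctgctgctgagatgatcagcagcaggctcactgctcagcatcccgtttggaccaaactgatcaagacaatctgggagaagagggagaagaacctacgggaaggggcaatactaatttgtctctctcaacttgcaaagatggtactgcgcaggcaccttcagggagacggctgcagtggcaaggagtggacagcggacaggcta
Mcm5 chr8:75109259-75109498, plus strand: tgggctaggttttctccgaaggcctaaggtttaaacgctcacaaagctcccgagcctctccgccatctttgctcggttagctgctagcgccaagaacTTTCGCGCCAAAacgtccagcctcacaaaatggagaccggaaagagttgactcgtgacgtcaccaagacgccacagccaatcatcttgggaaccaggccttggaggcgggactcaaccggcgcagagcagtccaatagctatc
Mcm6 chr1:128359716-128359955, minus strand: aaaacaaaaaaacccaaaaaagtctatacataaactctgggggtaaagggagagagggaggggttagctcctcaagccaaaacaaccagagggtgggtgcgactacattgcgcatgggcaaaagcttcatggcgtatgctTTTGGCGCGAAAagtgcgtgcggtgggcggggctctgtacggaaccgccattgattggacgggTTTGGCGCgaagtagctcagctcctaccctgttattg
The Mt2 window held 3 matches, whose first bases lie 223, 128 and 50 bases before the start, and the Mt1 window held 1, at 23 bases. The Mt3 window held none. Of 32851 windows of the same 240 bases in the table, 20.4% held at least 1 such match and 1.18% held 3 or more, so a single match is common. The E2F letters were rarer, in 0.618% of windows. Mcm6 held 3 matches, at 110, 106 and 47 bases, and Mcm5 held 2, at 153 and 149 bases, and in each gene the pair of matches 4 bases apart overlap; 6 windows in the table held 2 or more. The windows of Mcm2, Mcm3 and Mcm7 held none of these letters, and Mcm4 had no entry. A match describes letters in the window, and factor binding was not measured.

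Markers of other cells and depth moved with stage as well, and their part in the stage changes was tested only by the alternatives given here. Of genes of inhibitory neurons, 8 of 9 tested were higher than at E16.0 and 7 higher than at E14.5; none was abundant enough to test without the Dlx and neuronal members, a split that used Dlx genes. Of 9 genes of excitatory neurons tested, 6 rose and 0 fell in both comparisons, Tubb3 by 1.71 and 0.86 and Bcl11b by 1.70 and 0.97; the split used Tubb3, so no value after it is given. Of the vascular genes that could be tested, the claudin Cldn5 stood at 0, 5.98 and 28.7 CPM (log2 fold change 2.88 against E16.0), while Pecam1, Flt1, Kdr and Cdh5 had a median of 0, and Pdgfrb, a receptor of pericytes, rose to 24.1, 39.9 and 50.7 CPM (3.84 against E14.5), while Vtn, Kcnj8 and Abcc9 had a median of 0. Microglial and fibroblast genes were too low to test, and none of the 4 erythroid genes tested passed. Without the Dlx and neuronal members, 1642 genes were higher against both stages, 1412 of them among the 1840 found with all members, and 1612 were lower, 1469 of them among the 1694. With members thinned to 2000 UMIs, 2201 of 7900 genes tested passed against E16.0 and 3085 against E14.5. These members were picked at full depth before thinning, so the setting cannot show how depth changed which barcodes were picked. With WT libraries alone, 2038 and 3331 genes passed against E16.0 and E14.5. With the E17.5 libraries M2 and F2 alone, 1655 genes were higher and 1941 lower than at E16.0, and with M1 and F1 alone 1542 were higher and 1573 lower. Calls lost with M1 and F1 alone include those of Nfia, Rorb, Jag1, Aqp4, Olig2 and Pla2g7 against E16.0, those of Foxj1 in both comparisons and that of Gja1 against E14.5, and calls lost with M2 and F2 alone include that of Mlc1 against E16.0 and those of Fgfr3, Nfix, Mfng and Itga6 against E14.5. Sox9 against E16.0 and Il6st and Bmpr1b against E14.5 passed in neither pair alone. The balance of higher and lower calls against E16.0 moved from 53.9% higher with all libraries to between 46.6% and 49.3% when 1 library was left out and 42.9% with no filter on low counts. These settings also change the libraries or the genes tested, the cause was not tested, and the balance is not read as a result.

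**Figure D5:**
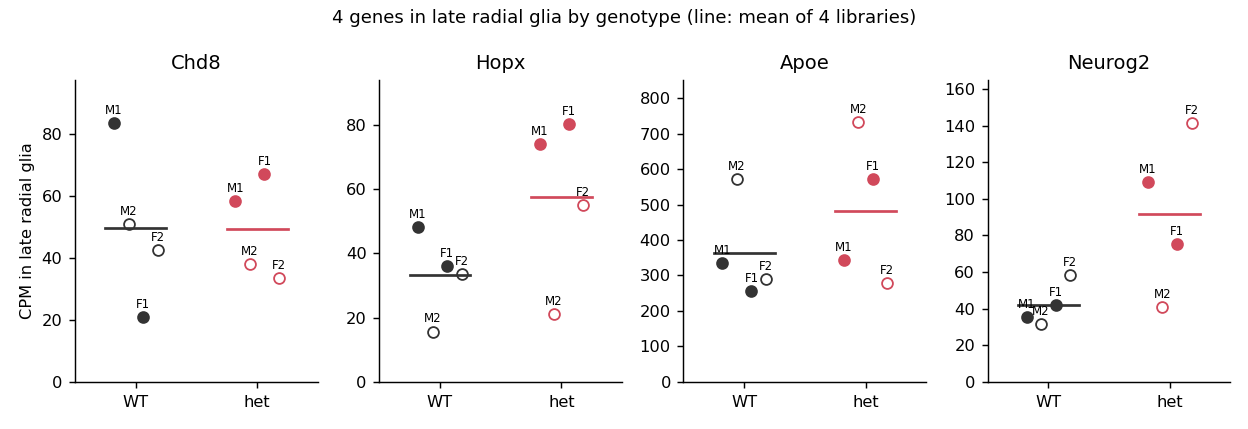
CPM of Chd8, Hopx, Apoe and Neurog2 in the E17.5 members of each of the 4 WT and 4 het libraries, with the mean as a bar, filled points for M1 and F1 and open points for M2 and F2. The WT and het values of Chd8 (21.0 to 83.6 and 33.5 to 67.0 CPM), Hopx and Apoe overlap, and 3 of 4 het values of Neurog2 lie above the highest WT value of 58.2 CPM.

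The second question was whether these cells differed between Chd8+/- and WT embryos. The share of members did not differ detectably between genotypes. In WT it was 1.44, 3.83, 1.60 and 3.17% for M1, M2, F1 and F2, and in het 1.92, 3.97, 1.73 and 2.79%. The means were 2.51% ± 1.18 (SD, n = 4) and 2.60% ± 1.03, a difference of 0.0927 percentage points (two-sided exact permutation test, p = 0.857; the smallest p possible is 0.0286). Leaving out 1 library moved the difference between -0.364 (without het M2) and 0.534 (without WT M2) percentage points.

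The share differed instead between the label codes. M1 and F1 libraries had 1.67% ± 0.203 (SD, n = 4) and M2 and F2 libraries 3.44% ± 0.557, with no overlap (difference -1.77 percentage points, two-sided exact permutation test, p = 0.0286, the smallest possible). Each genotype had the same number of libraries of each code. This comparison was added after the data were seen.

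Chd8, the targeted gene, showed no detectable difference in the members. It stood at 83.6, 51, 21 and 42.5 CPM in WT M1, M2, F1 and F2 and at 58.5, 38, 67 and 33.5 CPM in het M1, M2, F1 and F2. The ranges overlapped, and the log2 fold change was -0.09 ± 0.28 (edgeR adjusted p = 0.995). The labels give the genotype as Chd8+/- without the site or kind of the mutation, so whether a 3′ count reads it is unknown, and this level does not check the labels.

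No gene passed between genotypes. Of 10786 genes, 0 (0%) had an adjusted p under 0.05 with edgeR and 0 with DESeq2, and 503 had an unadjusted p under 0.05. For comparison, every het library lay above every WT library in 111 genes (1.03%) and below in 83 (0.77%). The 3 genes with the lowest unadjusted p, named after their values were seen, were Degs1 (log2 fold change -0.93), Ube3c (1.09) and Ubtf (0.78), each with an adjusted p of 0.995. With no filter on low counts, Neurog2, Ndn, Calb2 and Hist1h1e passed.

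For the lists given here, medians between genotypes ran from -0.28 to 0.22. The astrocyte list had a median log2 fold change of 0.10 in het against WT, the gliogenic regulators -0.01, the matrix genes 0.22, the early heterochronic genes -0.28 and the G1 and S phase genes 0.03, and the median over all genes was 0.003. The other 4 genes that an earlier look at these data had linked to the genotype, Crlf2 (0.67 ± 0.34), Zcwpw1 (0.11 ± 0.42), Car14 (-0.04 ± 0.68) and Gsta4 (-0.14 ± 0.35), did not pass either. Hopx was 48.2, 15.7, 36.1 and 33.6 CPM in WT and 74.1, 21.3, 80.4 and 55.1 CPM in het (M1, M2, F1 and F2), with a log2 fold change of 0.77 ± 0.32 (unadjusted p = 0.0210 and adjusted p = 0.995, edgeR). Apoe was 334, 572, 256 and 289 CPM in WT and 343, 733, 571 and 280.1 CPM in het, highest in the M2 library of each genotype. In both genes the groups overlapped, while het lay above WT under each of the 4 names for Hopx and under 3 of the 4 for Apoe. With the replicate block Hopx had 0.71 ± 0.24 (adjusted p = 0.694, edgeR). Tnc was 456, 356, 358 and 298 CPM in WT and 616, 448, 445 and 347 CPM in het, in the same order. Its groups overlapped too, with het above WT under each name. Aldoc was 1189, 1323.5, 977 and 1128 CPM in WT and 1169, 1257, 1407 and 981 CPM in het, above WT under F1 only. Neither passed.

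Whether the genotype difference in members departed from that in the other E17.5 cells was tested with the library as a term, and 2 of 13642 genes (0.0147%) passed, 1 higher (0.00733%) and 1 lower (0.00733%). Neurog2 was 35.3, 31.4, 42.1 and 58.2 CPM in WT members and 109, 41, 75.1 and 141 CPM in het members (M1, M2, F1 and F2), while the other cells had 197, 216, 190.1 and 294 CPM in WT and 182, 212, 175 and 276 CPM in het. The genotype difference was 1.14 ± 0.23 (SE) larger on the log2 scale in members (edgeR adjusted p = 0.00707). The het members' higher level rested on few cells: 5, 9, 4 and 12 members had a Neurog2 UMI in het M1, M2, F1 and F2, against 7, 13, 7 and 16 in WT, and a single het member held up to 22 UMIs, against up to 9 in WT. The call was lost without WT M2 (1.01, adjusted p = 0.141), het M1 (1.02, adjusted p = 0.256) or het F2 (0.95, adjusted p = 0.339), with at least 3 UMIs of Sox2 and Pax6 (0.68, adjusted p = 1.00) and with DESeq2 (1.13, adjusted p = 1.00). It was also lost with M2 and F2 alone (1.02, adjusted p = 0.382) and with M1 and F1 alone (1.33, adjusted p = 0.191), and it held without the Dlx and neuronal members (1.24, adjusted p = 0.00265). Het against WT in the members alone gave 1.06 with an adjusted p of 0.995.

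The other gene, Arhgap20, had 14 UMIs of 1855125 in WT members and 0 of 1706129 in het members. The gene was too low to be tested in the members alone, and the fitted difference from the other cells has no size that can be read against a count of 0. The WT UMIs were 2, 5, 6 and 1 in M1, M2, F1 and F2. With UMIs pooled over libraries, 3 counts in het members in place of 0 would put het 4.29-fold below WT. That ratio leaves out the spread between embryos and the uncertainty of the WT count, so it sets no bound. It is also not the quantity tested. The call was lost with at least 3 UMIs of Sox2 and Pax6, with DESeq2, with M2 and F2 alone, with M1 and F1 alone, without the Dlx and neuronal members and in 5 of the 8 fits that left out 1 library (WT M2, WT F1, het M1, het F1 or het F2). Apoe did not pass this test with all libraries (0.63, edgeR adjusted p = 0.117), and it passed with M1 and F1 alone (1.01, adjusted p = 0.00232) and without het F2 (0.79, adjusted p = 0.00714). The genotype difference at E17.5 against the mean of the 3 earlier stages passed in 0 of 10786 genes (0%) with edgeR and 0 with DESeq2, and 533 had an unadjusted p under 0.05. Without het M2, 2 genes passed, Bola1 and Nav2.

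The members of M1 and F1 differed from those of M2 and F2 in more genes than the genotypes did. Of 5803 genes tested in the E17.5 libraries with genotype as a term, 803 (13.8%) passed, 459 (7.91%) higher and 344 (5.93%) lower in M1 and F1. Without the Dlx and neuronal members 351 of 5124 (6.85%) were higher and 359 (7.01%) lower. Hspa5 (BiP) and Hsp90b1, chaperones of the endoplasmic reticulum named after their values were seen, were among those higher. Hspa5 had 312, 295, 296 and 373 CPM in WT M1, WT F1, het M1 and het F1 and 114, 89.6, 147 and 91 CPM in WT M2, WT F2, het M2 and het F2, a log2 difference of 1.45. Hsp90b1 had 315, 339.7, 464 and 461 CPM and 123, 208, 123 and 93.4 CPM, a difference of 1.48. Of genes described above, Slco1c1 (0.60), Hopx (0.97), Vim (0.80), Nes (0.78) and Hes1 (0.64) were higher in M1 and F1, and S100a16 (-1.31), Notch2 (-0.94), Hes5 (-0.45) and Mt3 (-0.56) were lower. Ccna2, Ube2c and Pclaf, cell cycle genes named in the same way, were also lower. The 13 immediate early and heat shock genes, several of which handling of tissue can raise, summed to 2877 to 3852 CPM in the M1 and F1 libraries and to 1601 to 1735 CPM in the M2 and F2 libraries, with Jun (1.13) among those higher. Hspa8 (1366 CPM) and Jun (584 CPM) were the largest parts of this sum over all members pooled, ahead of Fos (124 CPM). The part of tissue handling in these differences was not tested. This comparison too was added after the data were seen, and the stage changes of the 20 named genes kept their direction in M1 and F1 alone and in M2 and F2 alone; 2610318N02Rik did not pass against E16.0 with M1 and F1 alone (-0.85).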

How the data were processed

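Single-cell 3′ RNA-seq libraries of 32 embryos were analysed from the deposited UMI counts per gene and barcode, which the authors deposited as sparse matrices of 32285 genes. Per the submitters' processing notes, the build was mm10 and the tools were STAR 2.7.9a, STARsolo and Cell Ranger, with no role or order given; how cells were called is not given in the sources used here. Groups and replicate names came from the labels, which describe matched pairs of embryos without saying that a replicate number marks a pair. Total UMIs per E17.5 library ran from 14710694 to 25297174, and only 256560 to 764638 of them lay in members, so genes of low CPM rest on few UMIs; no interval beyond the spread between libraries is given.

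Barcodes with at least 1000 UMIs and 500 genes were kept, and members were picked by the rule on raw UMIs. Counts were summed per library. CPM are those sums scaled to a common total per library. Genes were tested with edgeR 4.0.16 in R 4.3.3 (TMM, filterByExpr, robust quasi-likelihood fit over the 8 groups of stage and genotype, Benjamini-Hochberg adjustment, threshold 0.05), with DESeq2 1.42.0 as an alternative. The test of members against other cells' genotype effect had the library as a term. The script was tested on simulated counts. Shares were compared with exact permutation tests written in Python 3.11.15. No doublets were removed; leaving out barcodes with the highest simulated-doublet scores (0.8% per 1000 barcodes) was an alternative. Other alternatives were no filter on low counts, at least 3 UMIs of Sox2 and Pax6, at most 10% mitochondrial UMIs, thinning to 2000 UMIs, sex as a covariate, a replicate block, E17.5 or WT libraries alone, and leaving out each library.

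Genes named for stage were the 10 largest changes a direction against E14.5 among those that passed both comparisons with a mean of at least 30 CPM; those named against other cells were the 15 highest and 10 lowest median ratios among genes of at least 50 CPM, in the members or in the other cells respectively, and moved the same way in 8 of 8 libraries. Genes that the rule used were left out of those ranked against other cells. Genes of the 27 lists were named as well, and any other gene was chosen after its values were seen. The members and lists were chosen with earlier results of these data known. Promoter sequences came from RefSeq (GRCm38.p6) and positions from GENCODE, matched by gene ID for 99.6% of genes. The labels call E17.5 replicates 1 and 2 by different codes, and comparisons by code, as well as those without Dlx or neuronal members, were added after the data were seen.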

Additional observations from a re-analysis of the deposited data

Results flagged for a closer look

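In 5 of 115 groups of 4 libraries examined, 1 library lay far from the other 3, where chance alone gives about 1 in 20 such groups. In WT, Atp1b1 (107 to 151 CPM; gap of 0.865 of the range), Slc6a11 (30.1 to 54.9 CPM; 0.952) and Mt1 (1013 to 1259 CPM; 0.886) had such a library. In het, Fgfbp3 (546 to 1145 CPM; 0.971) and Mt2 (529 to 1195 CPM; 0.965) did.

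The genotype difference of 2 genes departed in members from that in the other E17.5 cells by the test of the difference itself (edgeR). Neurog2 was higher by 1.14 on the log2 scale, with its UMIs in 4 to 12 het members per library. Arhgap20 had a fitted value of -9.61, which depends on the prior count because het members held 0 UMIs of it, so it gives no size of the difference.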

How the results depend on the processing

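Of the settings tried, 42 were applied to the stage changes of the 20 named genes, and 1679 of 1680 results kept direction and call. These 20 genes include Hmga2 and Car14, which passed the filter on low counts only through the earlier stages, so their calls are descriptions. Counts of genes against E16.0 and E14.5 were 2201 and 3085 with members thinned to 2000 UMIs, where 7900 genes were tested, and 2038 and 3331 with WT libraries only, where 16 libraries entered; leaving out 1 library gave 3538 to 4170 and 4948 to 5588. With no filter on low counts 4 genes passed between genotypes and 8 passed for the genotype difference at E17.5 against earlier stages; the cause was not tested. Leaving out 1 library gave 0 to 0 and 0 to 2 in these comparisons.

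The count of genes whose genotype difference departed in members from other cells was 0 with at least 3 UMIs of Sox2 and Pax6, 0 with DESeq2, 1 without Dlx or neuronal members, 1 with E17.5 replicates M2 and F2 only and 4 with M1 and F1 only, and 0 to 5 when 1 library was left out. Neither Neurog2 nor Arhgap20 was among those called with M2 and F2 only (Sparc) or with M1 and F1 only (Reln, Apoe, Hbb-bs and Hba-a1). Neurog2 ran from 0.95 to 1.48 and Arhgap20 from -10.13 to -9.17 in those fits. The difference in share was -0.119 percentage points with M2 and F2 only and -0.364 to 0.534 when 1 library was left out. Chd8 turned to 0.24 with M1 and F1 only (-0.29 to 0.13 when 1 library was left out), Zcwpw1 to -0.34 with thinning and -0.41 with M1 and F1 only (-0.36 to 0.39), Car14 to 1.93 with M1 and F1 only (-0.64 to 1.43), and Gsta4 ran from -0.53 to 0.0725; none of these 4 genes passed in any setting tried.

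Treating same-named WT and het libraries as a replicate block left 0 genes called (654 at an unadjusted p under 0.05) between genotypes and 0 (728) against earlier stages, and gave p = 0.625 for the share (exact sign-flip permutation test, smallest p 0.125; difference 0.0927 percentage points). Same-named libraries correlated from -0.00671 to 0.236 at E17.5, and 2 of 4 pairs matched best with their own name there. At E12.5 and at E14.5 4 of 4 pairs did so, at E16.0 1 of 4, and over all stages 11 of 16. The labels do not say that a name marks a pair, so the block is given only as an alternative. Whether the names are pairs is not known. Depth limits the low genes: a library with 47 members holds few UMIs of Gfap, Aqp4 or Egfr, and differences there were not detectable between genotypes.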
